A study of Rattus norvegicus with 4 samples.

Results

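Icam1, Icam2, Vcam1, Sele, Selp and Selplg encode selectins and vascular adhesion molecules, with 1 leukocyte ligand among them. They were chosen by symbol, and all 6 were found among the 14871 named genes of the array. Their transcripts were measured in kidneys that Lewis (Lew) rats had received from a genetically different donor. From the day of transplantation the rats were injected daily into a vein with a control peptide or with 6 mg/kg of an ApoE-mimetic peptide, modelled on apolipoprotein E. All grafts were removed on day 4, so every sample is a transplanted kidney under allogeneic attack, and no untransplanted kidney is part of the comparison. The sources used here give no donor strain, no age of the rats and no peptide sequence. Each of 4 two-colour Agilent arrays compared 1 graft sample under the ApoE-mimetic peptide with 1 under the control peptide, and the submitters describe the 4 replicates as biological. The ApoE-mimetic sample carried the dye Cy5 on replicates 1 and 3 and the dye Cy3 on replicates 2 and 4.

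These molecules act in sequence when leukocytes leave the blood. E-selectin, encoded by Sele, and P-selectin, encoded by Selp, appear on activated endothelium and let passing leukocytes tether and roll. Selplg encodes the P-selectin glycoprotein ligand, the sugar-bearing protein on leukocytes that selectins hold. Icam1 and Vcam1 encode immunoglobulin-family proteins to which leukocyte integrins then bind for firm arrest, and Icam2 encodes a related integrin ligand that resting endothelium already carries. Tumour necrosis factor, interleukin 1 and, for Icam1, interferon gamma raise several of these genes through NF-kB and interferon regulatory factors. In rejecting kidney grafts Icam1 and Vcam1 are also known from tubular epithelium. Since whole graft tissue was used, fewer cells of a type and less RNA per cell cannot be told apart.

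The deposited values are ratios between the channels of each array, taken here as log2, and they hold no level of any gene. Which channel is the numerator is not stated. Each value below is therefore given first as deposited, minus the array's median over all genes (-0.22, -0.04, -0.11 and -0.55 on replicates 1 to 4), and then turned into ApoE-mimetic over control under 2 readings of the columns. One reading takes every column as Cy5 over Cy3, so that replicates 2 and 4 change sign. The other takes the columns as already turned by the authors, with ApoE-mimetic in every numerator. If the numerators are the reverse of either reading, every sign turns and no p-value changes. Replicates 1 and 3, which share a labelled orientation, had a Pearson correlation of -0.238 over all features and -0.657 over the 13363 features with measurable signal, those whose value on no array was shared by more than 2 features, so neither reading makes these arrays alike. Over the latter features replicates 1 and 4 had a correlation of 0.393 and replicates 2 and 3 of 0.423, so a pattern of replicates 1 and 4 against 2 and 3, as seen in some members, was not limited to them. Proximal tubule markers had such a feature for 9 of 11 genes, endothelial markers for 10 of 16 and T cell markers for 10 of 11.

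The members were measured by 15 features, 10 for Icam1 and 1 for each of the other genes. A feature whose value is shared exactly by more than 2 features on an array, itself included, is treated as dim or saturated there. Icam1, Icam2, Vcam1 and Sele passed this filter on all 4 arrays. Selplg did not pass on replicate 1, where 3 features held its value, or on replicate 4, where 12 did. Selp did not pass on any array, as its values were shared by 61, 181, 14 and 3 features on replicates 1 to 4. Values of Selp on all arrays and of Selplg on replicates 1 and 4 are therefore treated as ratios of weak or saturated signals. No intensities were used to check this.

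**Figure D1:**
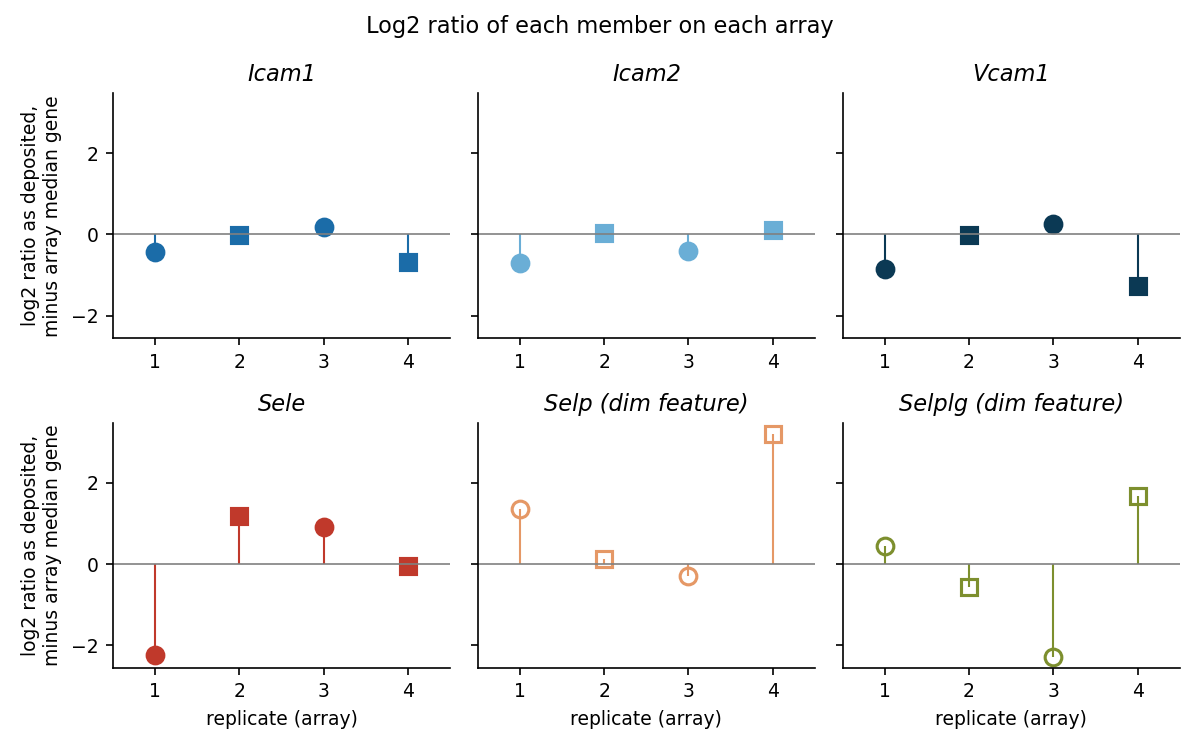
Log2 ratio of each member (vertical axis, as deposited minus the array's median gene) on the 4 arrays (horizontal axis), with circles where ApoE-mimetic RNA carried Cy5, squares where it carried Cy3, and open symbols for genes with a dim or saturated feature. Icam1 and Icam2 go no lower than -0.71 and no higher than 0.18, whereas Sele reaches -2.25 and Selp 3.19.

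Icam1, the cytokine-induced ligand of the integrin formed by the Itgal and Itgb2 chains, lay close to the median gene. Its deposited ratio relative to the median gene was -0.43 on replicate 1, -0.02 on replicate 2, 0.18 on replicate 3 and -0.67 on replicate 4. Replicates 1 and 4 were low, and replicates 2 and 3 lay near the median gene. The 10 Icam1 features ran from -0.51 to -0.36 on replicate 1, from -0.23 to 0.18 on replicate 2, from 0.11 to 0.29 on replicate 3 and from -0.78 to -0.52 on replicate 4. Their SD was 0.05, 0.11, 0.05 and 0.08 on the 4 arrays, against an SD of 0.38 between the array means. The feature ranges of replicates 1, 3 and 4 did not overlap one another, and that of replicate 2 overlapped that of replicate 3. Apart from replicates 2 and 3, the array values thus differed by more than the spread of features within an array. The features are repeats within an array, and no share of other genes with such separate ranges was taken. The separation is therefore not taken as particular to Icam1. All 10 features share 1 accession, and the sources used here do not say whether they carry 1 probe sequence.

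**Figure D2:**
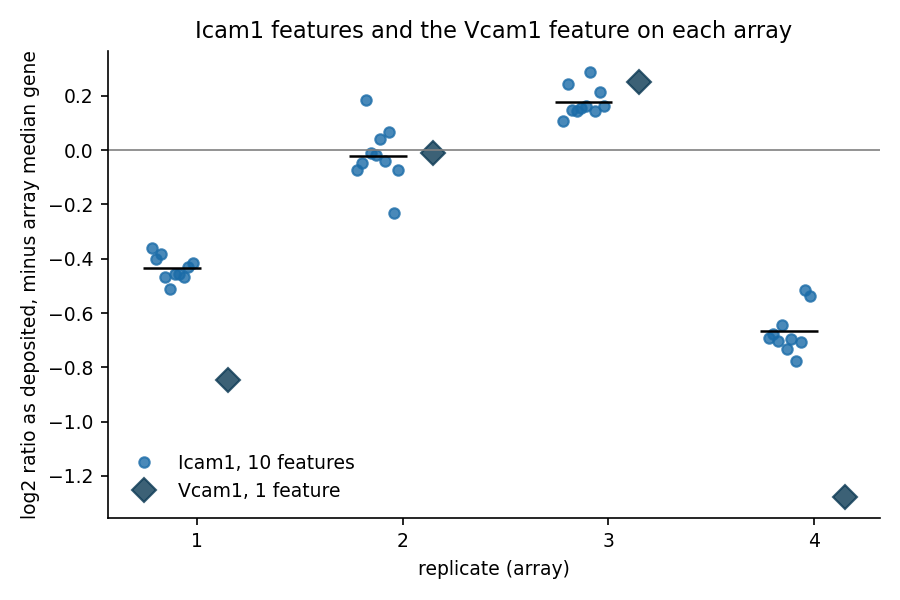
Log2 ratio (vertical axis, as deposited minus the array's median gene) of the 10 Icam1 features (circles, with their mean as a line) and of the 1 Vcam1 feature (diamond) on each array (horizontal axis). Icam1 features lie between -0.51 and -0.36 on replicate 1 and between -0.78 and -0.52 on replicate 4, with Vcam1 lower still, at -0.85 and -1.28.

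Vcam1, the ligand of integrins that contain the Itga4 chain, had the same order of arrays with wider swings. Its ratio was -0.85 on replicate 1, -0.01 on replicate 2, 0.25 on replicate 3 and -1.28 on replicate 4. As for Icam1, replicates 1 and 4 were low and replicates 2 and 3 lay near or above the median gene. The single features of well-measured genes give a scale for these values: in 49 genes with 10 or more features, none dim or saturated, the median SD over features was between 0.12 and 0.15 on the 4 arrays. The values of Vcam1 on replicates 1 and 4 are larger than that spread, and its value on replicate 2 is not. Of the 15 pairs of members, Icam1 and Vcam1 were the 1 pair on the same side of the median gene on all 4 arrays. Of all other genes, 5.99% shared the sides of Vcam1 on all 4 arrays, and of those with measurable signal 8.04% did. On replicate 2 both genes lay within 0.03 of the median gene, so their side there carries no weight. The Euclidean distance between both genes over the 4 arrays was 0.74. Of 6730 genes with measurable signal, 84 lay nearer to Vcam1 than Icam1 did, and 1201 lay nearer to Icam1 than Vcam1 did.

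The promoters of Icam1 and Vcam1 are shown because their ratios ran together, and that of Sele because it is the endothelial selectin gene with a measurable feature. Each is 300 bases of the GRCr8 assembly from RefSeq, from 250 bases before the annotated start of the gene to 50 bases after it. Windows placed by the annotated start, called promoters here, were matched for these 3 of the 6 members. Capitals mark matches to an NF-kB motif, GGNNTTTCC, on either strand.
Icam1 promoter, chr8:27829595-27829894, plus strand: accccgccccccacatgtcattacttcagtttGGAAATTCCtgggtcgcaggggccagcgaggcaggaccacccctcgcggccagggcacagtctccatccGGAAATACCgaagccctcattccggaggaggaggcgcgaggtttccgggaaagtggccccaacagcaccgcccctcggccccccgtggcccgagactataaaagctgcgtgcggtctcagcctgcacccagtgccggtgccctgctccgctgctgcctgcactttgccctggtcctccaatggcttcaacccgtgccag
Vcam1 promoter, chr2:206742734-206743033, minus strand: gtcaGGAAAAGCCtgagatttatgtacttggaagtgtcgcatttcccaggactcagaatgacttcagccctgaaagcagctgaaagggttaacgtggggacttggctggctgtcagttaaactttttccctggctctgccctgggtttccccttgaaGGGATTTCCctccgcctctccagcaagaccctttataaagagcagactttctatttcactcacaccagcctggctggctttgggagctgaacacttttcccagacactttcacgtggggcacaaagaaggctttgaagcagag
Sele promoter, chr13:78936264-78936563, plus strand: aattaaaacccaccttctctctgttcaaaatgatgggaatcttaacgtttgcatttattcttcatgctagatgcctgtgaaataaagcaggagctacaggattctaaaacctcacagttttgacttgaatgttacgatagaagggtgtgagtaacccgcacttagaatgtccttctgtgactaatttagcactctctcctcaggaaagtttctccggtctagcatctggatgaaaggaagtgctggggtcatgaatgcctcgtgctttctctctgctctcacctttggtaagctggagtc

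The Icam1 window held 2 matches to the NF-kB motif, both on the reverse strand, which begin 218 and 149 bases before the start. The Vcam1 window held 2 as well, one on the reverse strand 246 bases before the start and one on the forward strand 93 bases before it. The Sele window held 0 matches, which says only that these letters are not in this window. Its bases from the annotated start on begin with ATG, the letters of a start codon. Whether this window holds the promoter of Sele was not tested, so it gives no answer about NF-kB sites of the gene. Of 33469 rat promoters of the same length, 6.05% held at least 1 match. An interferon regulatory factor motif, GAAA repeated after any 2 bases, was found once, in Vcam1, on the reverse strand 46 bases before the start, and 3.92% of promoters held it. An AP-1 motif, TGANTCA, was found in 0 of the 3 windows and in 7.33% of promoters. The NF-kB and interferon motifs do not overlap in these windows.

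Icam2, the integrin ligand of resting endothelium, lay near or below the median gene. Its ratio was -0.71 on replicate 1, 0.04 on replicate 2, -0.42 on replicate 3 and 0.11 on replicate 4. The arrays with ApoE-mimetic RNA in Cy5 were low, and both arrays with it in Cy3 lay near the median gene. Read as Cy5 over Cy3, Icam2 was therefore on the control side on all 4 arrays, at -0.71, -0.04, -0.42 and -0.11. Its values on replicates 2 and 4 were smaller than the median SD over features of well-measured genes, 0.13 and 0.15 on these arrays. The side of its 1 feature there carries little weight. It was the 1 member with 1 side on all arrays under that reading, against 1491 of 14847 genes, or 10%, with 1 side in either direction, and 5.13% of all genes, or 5.88% of those with measurable signal, lay on the control side on all 4. With columns taken as already turned, 0 members kept 1 side, against 11.4% of all genes.

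Sele had the widest range among the members with measurable signal. Its ratio was -2.25 on replicate 1, 1.18 on replicate 2, 0.91 on replicate 3 and -0.04 on replicate 4. Replicate 1 was low, replicates 2 and 3 were high, and replicate 4 lay at the median gene. On replicate 1, 1.45% of all genes lay below Sele, whereas on replicates 2 and 3 92.7% and 91.0% did. Without regard to sign, its mean distance from the median gene over the 4 arrays was 1.10, above that of 95.2% of the 6731 genes with measurable signal. The same mean distance was 0.60 for Vcam1, 0.33 for Icam1 and 0.32 for Icam2, against a median of 0.38 over those genes. Since replicates 1 and 3 have the same labelled dyes and their values have opposite signs, the direction of Sele between the peptides differed between these pairs under either reading.

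Markers of endothelium and of proximal tubule differed between the arrays as well. The 16 endothelial markers had medians of -0.62, 0.38, 0.04 and -0.94 on replicates 1 to 4, with 3, 12, 8 and 5 of 16 above the median gene. The 11 proximal tubule markers had medians of -0.99, 1.66, 1.06 and -0.93, with 1, 10, 10 and 4 of 11 above it. Sele was low with both lists on replicate 1 and high with both on replicate 2. On replicate 3 it was high with the proximal tubule list while the endothelial median lay near 0, and on replicate 4 both lists were low while Sele lay near 0. By sign alone, counting values near 0, it was on the side of both lists on all 4 arrays, as were 9.4% of all genes and 13.4% of those with measurable signal. The part of these markers in the values of Sele was not tested.

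**Figure D3:**
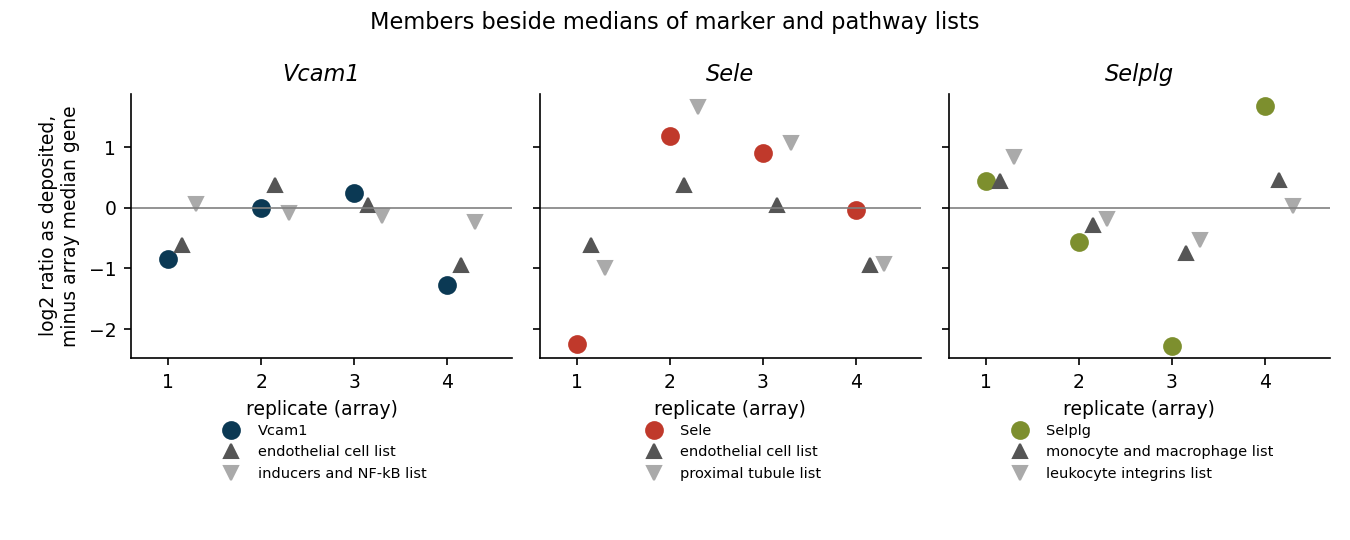
Log2 ratio (vertical axis, as deposited minus the array's median gene) of Vcam1, Sele and Selplg (circles) on each array (horizontal axis), beside the medians of marker and pathway lists (triangles). On replicate 4 Sele lies at -0.04 while the endothelial and proximal tubule medians are -0.94 and -0.93. Selplg has the sign of the monocyte medians on all 4 arrays, as 8.24% of all genes do. Its feature was dim or saturated on replicates 1 and 4.

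Selp, which endothelium and platelets store and expose on activation, gave the largest single value of the members, from a feature that was dim or saturated on all 4 arrays. Its ratio was 1.35 on replicate 1, 0.12 on replicate 2, -0.29 on replicate 3 and 3.19 on replicate 4. Replicates 1 and 4 were high, and the other arrays lay near the median gene. On replicate 4 the ratios of dim or saturated features were higher toward the last columns of the array grid, whose 85 columns were inferred from a repeat in the feature numbers. The Selp feature lies in column 80. There, within 2 columns, the 1929 dim or saturated features of replicate 4 had a median of 1.40 and a 5th to 95th percentile range from -1.37 to 2.83, and 97.4% of them lay below Selp. On replicates 1, 2 and 3 the matching medians were 0.14, -0.02 and 0.12. Features with measurable signal did not follow this slope: the Icam1 features, spread over columns 25 to 82, stayed between -0.78 and -0.52. With the median of dim features of its column subtracted, an alternative added after the data were seen, the treatment coefficient of Selp went from -0.56 to -0.29 under the Cy5 over Cy3 reading. Platelet markers, of which 7 of 10 were measured and 2 had measurable signal, had medians of -0.73, 0.32, -0.20 and 0.50 on the 4 arrays. Selp lay on their side on 3 of 4 arrays.

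**Figure D4:**
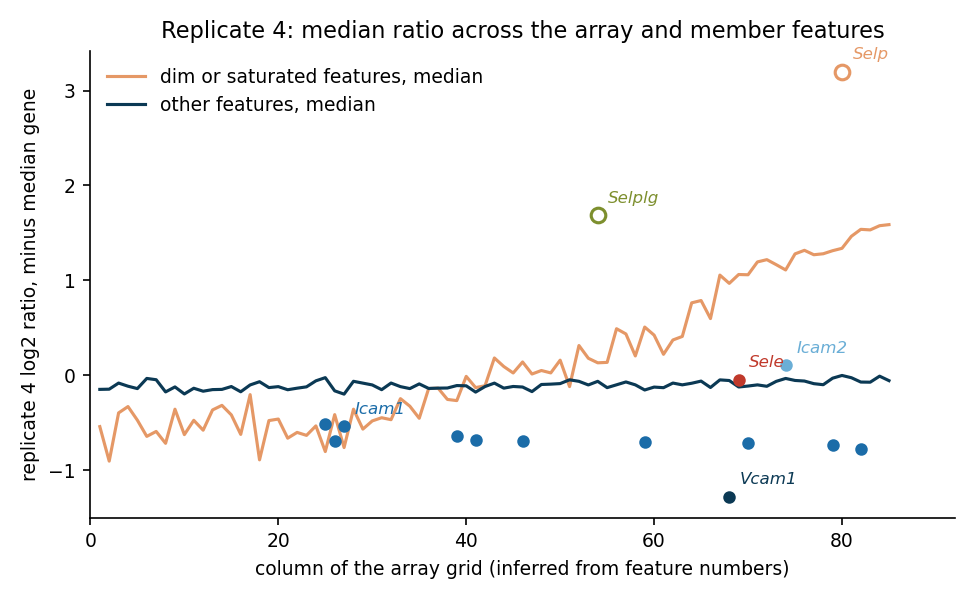
Replicate 4 log2 ratio (vertical axis, minus the median gene) against the inferred column of the array grid (horizontal axis), with lines for the median of dim or saturated features and of all other features, and points for the member features (open where dim or saturated). The Selp feature, at 3.19 in column 80, lies where dim features have a median of 1.40, while the Icam1 features keep their level across the array.

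Selplg, the leukocyte partner of the selectins, differed widely between the arrays. Its ratio was 0.44 on replicate 1, -0.56 on replicate 2, -2.28 on replicate 3 and 1.69 on replicate 4. Replicate 3 was lowest and replicate 4 highest. On replicates 1 and 4 its feature, in column 54, did not pass the filter on shared values. Of the dim or saturated features within 2 columns, 66.4% lay below it on replicate 1 and 83.4% on replicate 4. Those of replicate 4 had a 5th to 95th percentile range from -1.84 to 2.27, which includes its value. On replicate 3, where no more than 2 features held its value, 0.975% of all genes lay below it. On replicates 2 and 3, where the features of Sele and Selplg both passed the filter on shared values, Sele was high and Selplg low. The 10 monocyte and macrophage markers had medians of 0.44, -0.29, -0.74 and 0.46, with 10, 2, 1 and 8 of 10 above the median gene. Selplg lay on their side on all 4 arrays, as did 8.24% of all genes. Its sides on replicates 1 and 4 rest on values that did not pass the filter. T cell markers had medians of 0.64, -1.69, -1.42 and -1.35, and Selplg shared their side on replicates 1, 2 and 3. Over 11 lists and 6 members, 5 of 66 pairs of list and member were on 1 side on all 4 arrays and 4 were on opposite sides. The count on 1 side is near the shares for all genes, which ran from 5.0% to 9.4% by list. No share of all genes was taken for opposite sides. Neither count is a result about the members.

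None of the 6 genes passed the test between the peptides under either reading. The test was limma with a treatment and a dye coefficient over all genes, and a call needed a Benjamini-Hochberg adjusted p under 0.05. Of 14863 genes tested with columns read as Cy5 over Cy3, 0.0% were called, 503 or 3.38% had an unadjusted p under 0.05, and 0 of the 6 members did. Among genes with measurable signal 0.683% did. With columns taken as already turned, 0.0% of 14871 genes were called, 458 or 3.08% had an unadjusted p under 0.05, and 0 members did. The adjusted p of every member was 0.9999 under the first reading and 0.9997 under the other. The SE of a coefficient does not rest on the spread over all 4 pairs. It starts from a gene's spread between arrays of 1 labelled orientation. The eBayes step of limma then moves that spread toward a value shared over all genes. The SEs and intervals below are therefore set in part by other genes.

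Read as Cy5 over Cy3, the log2 ratio of ApoE-mimetic over control was 0.11 for Icam1 (SE 0.28, 95% interval from -0.62 to 0.83). The turned values of Icam1 were -0.43, 0.02, 0.18 and 0.67, a mean of 0.11 ± 0.45 (SD, n = 4), so replicates 1 and 4 opposed each other. Vcam1 had 0.17 (SE 0.36, interval from -0.78 to 1.12), with turned values of -0.85, 0.01, 0.25 and 1.28 and an SD of 0.87. Icam2 had -0.32 (SE 0.24, interval from -0.95 to 0.31) and an SD of 0.31. For Icam2 an exact test that flips the signs of the arrays, two-sided, gave p = 0.125, the smallest that 4 arrays allow, and for the other members p lay between 0.5 and 0.625. For both firm-adhesion ligands the sign of the mean rested on replicate 4, as their other values summed to below 0. Without replicate 4 the coefficients of Icam1 and Vcam1 were -0.054 and -0.14, and without replicate 3 they were -0.045 and -0.10.

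The rolling molecules had wider intervals under the same reading. Sele had -0.62 (SE 0.60, interval from -2.20 to 0.96), with turned values of -2.25, -1.18, 0.91 and 0.04 and an SD of 1.38. Selp had -0.56 (SE 0.62, interval from -2.18 to 1.06), with turned values of 1.35, -0.12, -0.29 and -3.19 and an SD of 1.90. Selplg had -0.74 (SE 0.62, interval from -2.38 to 0.89), with turned values of 0.44, 0.56, -2.28 and -1.69 and an SD of 1.46. Within each of these genes the 4 pairs pointed both ways, and the SD over arrays was larger than the mean. The coefficient of Sele was 0.17 without replicate 1 and -1.41 without replicate 3. That of Selp was 0.21 without replicate 4 and -1.33 without replicate 2, and that of Selplg was -0.059 without replicate 3 and -1.42 without replicate 1.

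With columns taken as already turned, Icam1 had -0.24 (SE 0.28), Icam2 -0.24 (SE 0.24) and Vcam1 -0.47 (SE 0.36). Sele had -0.052 (SE 0.60), Selplg -0.18 (SE 0.62) and Selp 1.09 (SE 0.62, 95% interval from -0.52 to 2.71). The coefficients of Icam2, Sele and Selplg were below 0 under both readings, though that of Sele was 0.038 under the other reading with dim features left out, and those of Icam1, Vcam1 and Selp changed sign between them. The intervals of Icam1, Icam2 and Vcam1 extend no lower than -1.42 and no higher than 1.12 under either reading, whereas those of the selectins and Selplg extend to -2.38 and 2.71.

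**Figure D5:**
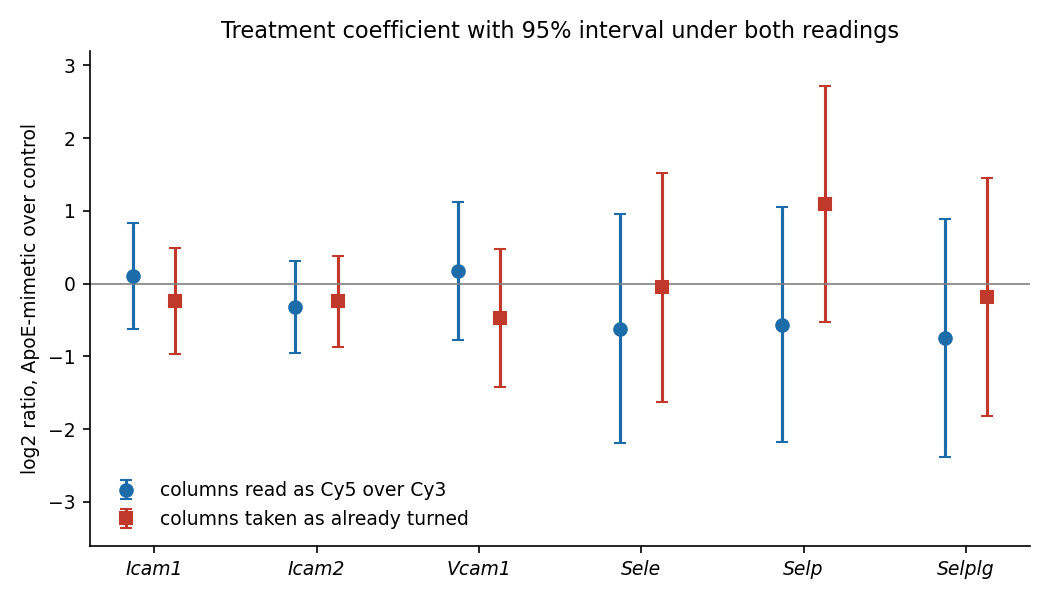
Treatment coefficient of each member (vertical axis, log2 ratio of ApoE-mimetic over control, with the 95% interval of limma as bars) with columns read as Cy5 over Cy3 (circles) and with columns taken as already turned (squares). Every interval includes 0, and Icam1, Vcam1 and Selp lie on opposite sides of 0 under the 2 readings.

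The molecules around these genes gave 0 calls as well. The genes named from each list are the 3 with the smallest unadjusted p under the Cy5 over Cy3 reading, among those with measurable signal. Their p-values and shared sides under that reading follow in part from this choice. Over all genes the median coefficient was -0.02 under the Cy5 over Cy3 reading, with 6977 of 14863 above 0, and -0.02 under the other. Among 11 measured genes of endothelial adhesion and transmigration, 0 passed in either direction, 5 lay above 0 and the median was -0.09. Alcam, an immunoglobulin-family adhesion molecule, had -0.63 (SE 0.24) and lay on the control side on all 4 arrays, at -0.70, -0.57, -0.42 and -0.83. With columns taken as already turned Alcam had 0.07. Pecam1, a junction molecule through which leukocytes cross endothelium, had -0.43 (SE 0.41), and Cd99l2 had -0.20 (SE 0.33).

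Among 8 measured integrin chains, the leukocyte side of firm adhesion, 0 passed, 3 lay above 0 and the median was -0.05. Itgal, which pairs with Itgb2 to bind Icam1, had deposited ratios of 0.81, -0.60, -1.39 and -1.18, a coefficient of 0.30 (SE 0.44) and -0.59 with columns taken as already turned. Itgb1, the partner of Itga4 in binding Vcam1, had -0.19 (SE 0.27), and 0.67 (SE 0.27) under the other reading, where it lay above the median gene on all 4 arrays. Itgb7 had -0.20 (SE 0.26). The list's medians on replicates 1 to 4 were 0.84, -0.19, -0.53 and 0.02.

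Among 15 measured genes that build or carry selectin ligands, 0 passed, 4 lay above 0 and the median was -0.09. Cd24, a sugar-bearing surface protein that P-selectin can bind, had -0.82 (SE 0.24) with turned values of -0.72, -1.03, -0.51 and -1.04, the same side on all 4 arrays. Its unadjusted p was 0.0199, its adjusted p 0.9999, and its coefficient 0.21 under the other reading. Tpst1, which sulfates tyrosines such as those of the P-selectin ligand, had -0.37 (SE 0.29), and the sialyltransferase gene St3gal4 had 0.41 (SE 0.36).

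Among 17 measured inducers of these genes and members of the NF-kB chain, 0 passed, 14 lay above 0 and the median was 0.13. With columns taken as already turned, 7 lay above 0 and the median was -0.07. Ifng, encoding interferon gamma, had turned values of 0.06, 0.68, 0.90 and 1.18, a coefficient of 0.71 (SE 0.28) and -0.23 under the other reading. Tnfrsf1a, a receptor of tumour necrosis factor, had -0.41 (SE 0.29), and Nfkb1, an NF-kB subunit, had 0.24 (SE 0.24). None of these genes had an adjusted p below that of the members.

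The genes most like each member were those with the smallest Euclidean distance over the 4 array ratios, among genes with measurable signal. For Icam1 these were Atp5f1b, Atp23 and Vezt, at distances from 0.15 to 0.18. The median distance to Icam1 over 6730 such genes was 1.16. For Icam2 they were Foxc2, Jag2 and Kat2a, from 0.14 to 0.22, and for Vcam1 they were Ribc1, Acrbp and Smarce1, from 0.20 to 0.31. Sele was less crowded, with Suox, Crym and Fbp1 at 0.59 to 0.66. The nearest to Selplg were Sema6b at 0.62 and the collagen genes Col3a1 at 0.81 and Col1a1 at 0.99. Lcn2 lay nearest to Selp, at 0.79, with ratios of 1.74, -0.22, -0.78 and 3.56, followed by Cep57l1 at 1.21 and Cck at 1.39. With 4 arrays such likeness describes these values alone.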

How the data were processed

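The deposited table holds 1 value for each of 45220 features on 4 two-colour arrays, taken as log2 ratios of the channels as the authors deposited them. The sources used here do not give the scanner, the background correction, the normalization, the log base or the numerator. Symbols came from GEO's platform annotation, which paired 25353 features with 1 symbol and 48 with several and left 19819 unnamed. Of the features with 1 symbol, 25306 were matched to RefSeq by gene number. Features of a gene were averaged on each array, and arrays were centred on their median gene. Ratios of all genes were fitted in limma (version 3.58.1, R 4.3.3, functions lmFit and eBayes), with treatment coded by labelled dye beside a dye term. Benjamini-Hochberg adjustment ran over all genes, with a threshold of 0.05. The fit was tested on simulated data. Features with a value shared by more than 2 features on any array were taken as dim or saturated, without intensities. Named genes were the 6 members, the 3 nearest genes of each, and per pathway list the 3 genes with the smallest unadjusted p among those with measurable signal. Members and lists were chosen with earlier results of these data known. Alternatives covered the reading of the columns, the dye term, centring, scaling, array weights, array position, dim features, the median over features and leaving out each replicate. Python 3.11.15 was used for the rest.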

Additional observations from a re-analysis of the deposited data

Results flagged for a closer look

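No member's 4 values held an array that stood apart by Dixon's test of the gap to the nearest value as a share of the range. Of 34 sets of 4 values tested, 2 did, both list medians as deposited, and about 1 in 20 would by chance. The T cell list had medians of 0.64 on replicate 1 and of -1.69, -1.42 and -1.35 on replicates 2, 3 and 4, with a gap of 0.853 of the range. The smooth muscle and pericyte list had 0.46 on replicate 2 against -0.15, -0.23 and -0.22 on replicates 1, 3 and 4, with a gap of 0.881.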

How the results depend on the processing

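No gene passed under any of 21 alternatives, 5 of them added after the data were seen (limma, with 95 to 1182 genes at an unadjusted p under 0.05). The direction of Icam2 and Selplg was the same under all alternatives that gave a value. Icam1, Vcam1, Sele and Selp were reversed under 6, 6, 2 and 4 alternatives. With columns taken as already turned, with or without the dye term, Icam1 was -0.24, Vcam1 -0.47 and Selp 1.09. With dim features also left out, Icam1 was -0.15, Vcam1 -0.38 and Sele 0.038, and Selp and Selplg had no value. Leaving out 1 replicate gave ranges from -0.054 to 0.27 for Icam1, -0.14 to 0.49 for Vcam1, -1.41 to 0.17 for Sele, -1.33 to 0.21 for Selp, -0.39 to -0.25 for Icam2 and -1.42 to -0.06 for Selplg. With no dye term as well these were -0.079 to 0.29, -0.20 to 0.51, -1.13 to -0.07, -1.20 to 0.32, -0.41 to -0.19 and -1.17 to -0.23. With the dye term, the sign of Icam1 and Vcam1 turned without replicate 3 or 4, that of Sele without replicate 1, and that of Selp without replicate 4; beyond fewer arrays, the cause was not tested. The pairing of samples is already used, since each ratio compares 1 pair on 1 array and the tests were run on these ratios. Selp and Selplg have no feature that passed the filter on all arrays, and no intensities were used.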

Other observations

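Markers of neutrophils, which roll on both endothelial selectins, could hardly be followed here. All 9 had a feature, and 2 had measurable signal. Their medians relative to the median gene were 0.12, 0.36, 0.13 and 0.65 on replicates 1 to 4 as deposited, with 5 of 9 above the median gene on each array.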
